A study of Arabidopsis thaliana with 4 samples.

Results

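Cytochrome P450 genes were followed in the shoots of jaw-D plants and of Columbia plants. They were taken from the array annotation as probe sets assigned to 1 gene whose symbol is CYP, a number of 2 or 3 digits, a letter and a number. This gave 22 genes of 13350 genes with a probe set of their own. The TAIR10.1 gene table holds 225 such symbols, so most P450 genes, among them those of brassinosteroid, gibberellin and abscisic acid metabolism, were not analysed here. By subfamily, 18 of the 22 were CYP71B genes, and CYP51G, CYP78A, CYP79A and CYP84A had 1 each. Every one of the 22 was represented by 1 probe set.

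The RNA was total RNA of Arabidopsis thaliana shoots (aerial parts) at 2 weeks of age, with 2 arrays of jaw-D and 2 arrays of Columbia, the control. The labels describe jaw-D as a single activation-tagged line, in which a T-DNA carrying enhancers raises genes near its insertion. It is known for overexpressing miR319a, which pairs with transcripts of TCP transcription factors and gives crinkled leaves. Whether the 2 samples of a genotype are separate plants, pools or repeats of 1 extract is not in the labels, so p-values reflect the spread between arrays, which may be technical.

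P450 enzymes are haem-containing monooxygenases, most of them anchored in the endoplasmic reticulum, which take electrons from a reductase to activate oxygen and insert 1 of its atoms into small molecules. Plants carry large P450 families that make and break down hormones, sterols, phenylpropanoids, cutin and defence compounds. The CYP71B subfamily is large in Arabidopsis and many of its genes lie next to each other on the chromosomes. It is best known for CYP71B15 (PAD3) of camalexin synthesis, which is not among the genes measured here, and most other members have no assigned reaction.

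None of the 22 P450 genes passed the test between jaw-D and Columbia, 0 higher and 0 lower in jaw-D. Over all 22746 probe sets tested, 4.19% passed, 1.64% higher and 2.54% lower in jaw-D. The test was limma on log2(intensity + pseudocount) after quantile normalization, and the threshold was an adjusted p of 0.05. The pseudocount was 302.3 units, so a log2 difference understates the change of a dim gene. At an unadjusted p under 0.05 there were 2 P450 genes higher and 2 lower in jaw-D, 18.2% of the 22, against 19.9% of all probe sets. The jaw-D arrays both lay outside the Columbia arrays for 11 of 22 genes, 5 above and 6 below. Among all probe sets 49.0% were separated in this way, 25.5% above and 23.6% below, so the P450 share lies near that of the array as a whole. As deposited the groups of CYP71B31, CYP71B34 and CYP84A4 overlapped and those of CYP71B23 did not. The count also takes in dim genes, which are split off below.

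The median log2 difference of the 22 genes was -0.05, with 9 positive and 13 negative, against a median of 0.01 over all probe sets. With the values as deposited it was -0.0008, against 0.04 over all probe sets. Single differences ran between -0.53 for CYP71B24 and 0.57 for CYP71B37.

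**Figure D1:**
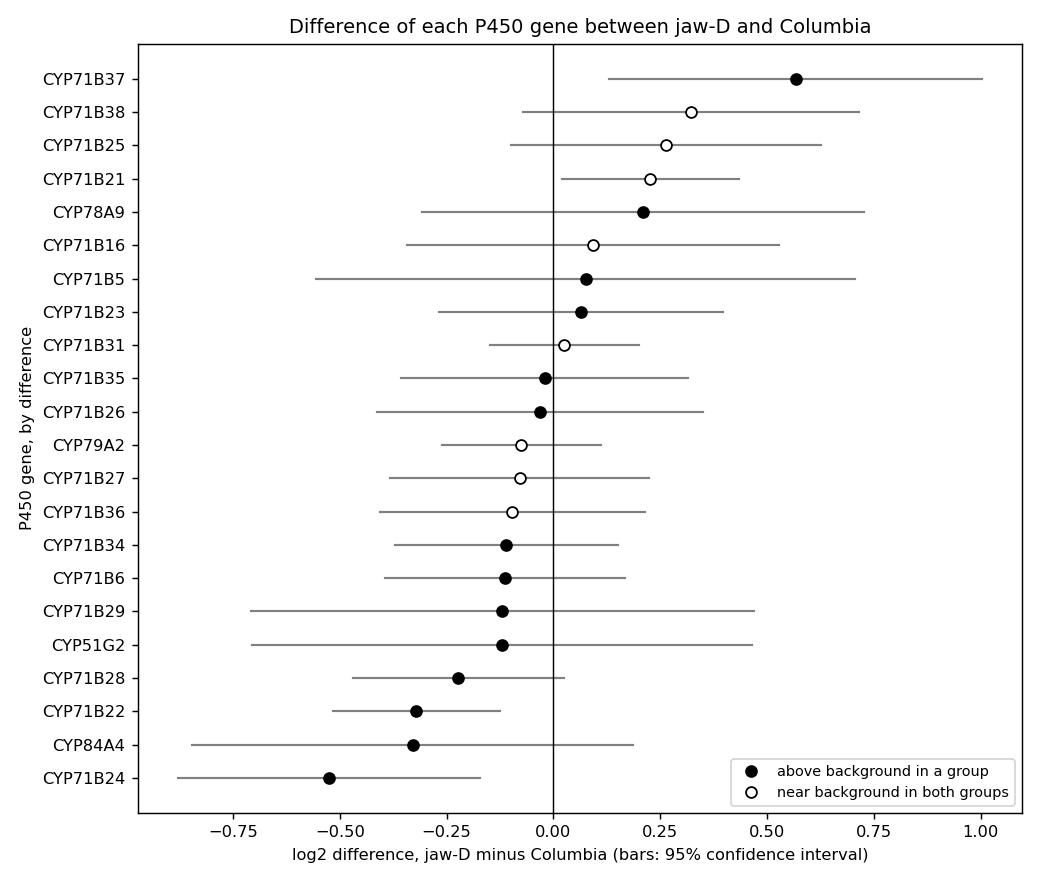
The log2 difference of each P450 gene, jaw-D minus Columbia, is plotted with its 95% confidence interval from limma, ordered by size, with open circles for genes near background in both groups. CYP71B37 at 0.57 and CYP71B24 at -0.53 mark the ends, and the intervals of CYP71B37, CYP71B21, CYP71B22 and CYP71B24 do not cross 0.

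Many of these genes were dim. The 27 probe sets for Bacillus subtilis transcripts, which a plant lacks, read at most 353 units. A gene is called near background here where its deposited means in jaw-D and in Columbia are no higher than that. That applied to 8 of the 22 genes, 7 of them CYP71B genes. Of these 8, both jaw-D arrays lay above the Columbia arrays for 4 and below for 1, 62.5%, against 49.0% of all probe sets. The share among near-background probe sets alone was not worked out. CYP71B31, among those above, overlapped as deposited. Among the 14 others both jaw-D arrays lay above for 1 and below for 5, 42.9%. Of all probe sets not near background 54.3% were separated, 4875 above and 4321 below. CYP84A4, among those below, is in the 14 only through its Columbia mean. As deposited it read 398 and 160 units in jaw-D and 429 and 375 units in Columbia. CYP71B23, which overlapped after quantile normalization, is in the 14 only through its jaw-D mean. The median log2 difference was 0.06 for the 8, with 5 positive and 3 negative. For the 14 it was -0.11, with 4 positive and 10 negative. Over all probe sets not near background it was 0.01, with 8916 positive and 8011 negative. As deposited CYP71B26 and CYP71B35 turned positive, the groups of CYP71B34 and CYP84A4 overlapped, and those of CYP71B23 were separated. For 13 of the 14 others the 95% confidence interval of the log2 difference stayed within 1 in either direction, a 2-fold change on this scale. The exception was CYP71B37, whose interval reached 1.004. Because the pseudocount is added, a fold of the intensities themselves can be larger, above all for genes that read near the pseudocount. For near-background genes the pseudocount sets the size, and no such bound is given. With near-background probe sets left out before the fit, 14 P450 genes remained and 2 passed. CYP71B37 was higher in jaw-D (adjusted p 0.0409) and CYP71B24 was lower (adjusted p 0.0459, limma). Both lay above 353 units on all 4 arrays. With this filter the CYP71B24 call ended on the values as deposited (adjusted p 0.0669) and the CYP71B37 call with each array centred on its own median (0.0524). With 1 array also left out, CYP71B24 passed in none of 4 fits and CYP71B37 in 1, the fit without Columbia replicate 1. In the filtered fit on all 4 arrays the 2 genes that passed were 14.3% of the 14. Of the 16927 probe sets kept 12.9% passed in that fit, 6.06% higher and 6.83% lower in jaw-D.

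**Figure D2:**
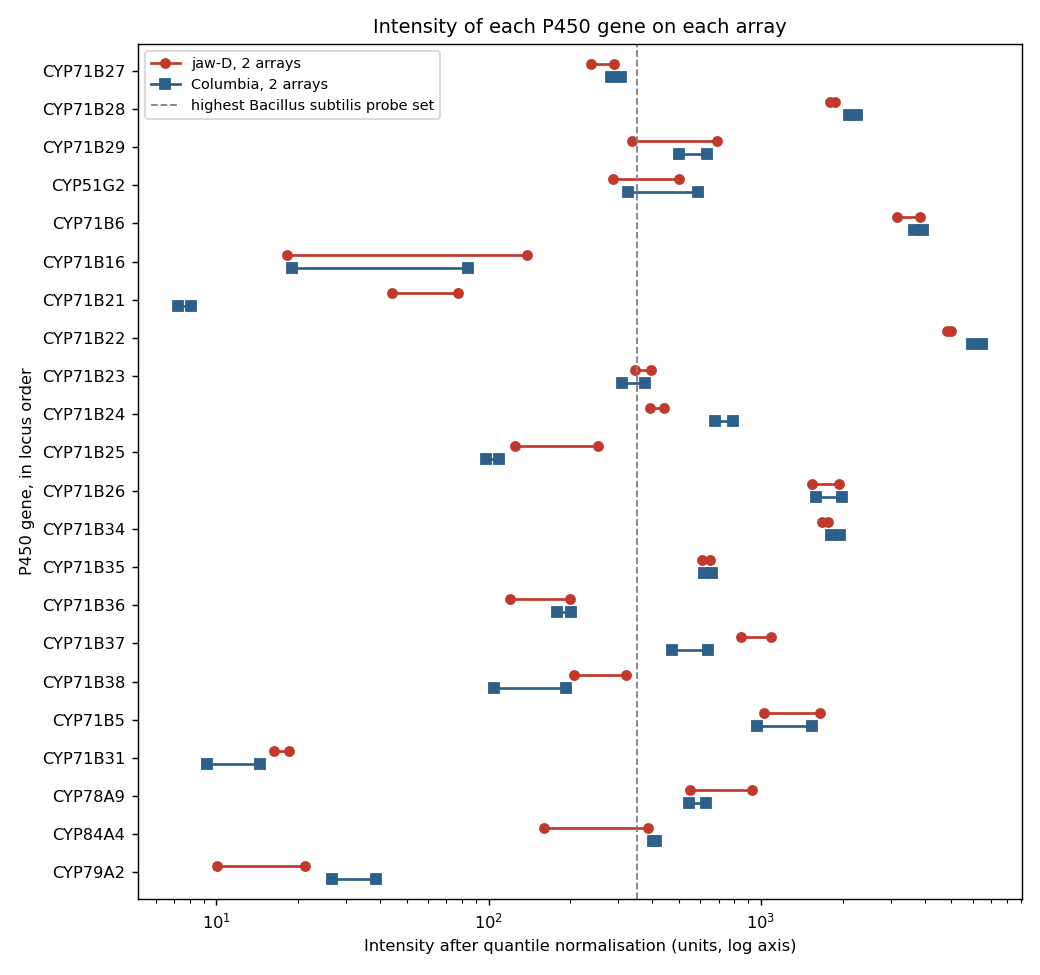
The intensity of each P450 gene after quantile normalization is plotted on a log axis, in locus order, with the 2 jaw-D arrays as red circles and the 2 Columbia arrays as blue squares, joined within a group. The dashed line is the highest Bacillus subtilis probe set at 353 units. CYP71B37 lies to the right and CYP71B24 to the left in jaw-D with a gap between the groups, while the groups share much of their range for CYP71B26, CYP71B35, CYP51G2 and CYP71B5.

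The largest cluster of measured P450 genes lies in 1 run on chromosome 3, between CYP71B16 (AT3G26150) and CYP71B37 (AT3G26330). The gene table places 25 loci there, 18 of them with a CYP71B symbol, and 11 of the 22 measured genes are in this run. The 4 genes at an unadjusted p under 0.05 all belong to it, 2 higher and 2 lower in jaw-D. They are 36.4% of the 11, against 0 of the 7 CYP71B genes outside the run and 19.9% of all probe sets. CYP71B21, among the 4, was near background. Of the 7 genes of the run that were not, 3 had such a p, 42.9%, against 23.8% of all probe sets not near background. These shares are given as a description with no test. Within the run 5 differences were positive and 6 negative, with a median of -0.02. The run was singled out after its values were seen, and its neighbouring genes have similar sequences, so signal shared between close copies was not tested.

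CYP71B37, at the end of the run, read 1092 and 843 units on the jaw-D arrays, against 639 and 471 units on the Columbia arrays. Both jaw-D arrays were above both Columbia arrays. The jaw-D mean of 968 ± 176 units was 1.74 times the Columbia mean of 555 ± 118 units (SD, n = 2 each). On the log2 scale the difference was 0.57 ± 0.18 (SE; adjusted p 0.154, limma). Its neighbour CYP71B36 was near background, at 200 and 120 units in jaw-D and 179 and 201 units in Columbia, and the groups overlapped.

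CYP71B24 had the largest negative difference. It read 393 and 441 units in jaw-D, against 680 and 788 units in Columbia, with no overlap. The jaw-D mean was 0.568 times the Columbia mean, and the log2 difference was -0.53 ± 0.14 (SE; adjusted p 0.115, limma). Both groups of this gene were tight, with the larger array at 1.12 times the smaller in jaw-D and 1.16 times in Columbia.

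CYP71B22 had the smallest p of the 22 genes. It read 4997 and 4851 units in jaw-D, against 5951 and 6511 units in Columbia. Both jaw-D arrays were lower, and the jaw-D mean was 0.790 times the Columbia mean. The log2 difference was -0.32 ± 0.08 (SE; adjusted p 0.0917, limma).

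A probe set annotated to both CYP71B20 and CYP71B19, which lie side by side in the run, is outside the 22 because its signal cannot be assigned to either gene. It read 1954 and 2493 units in jaw-D, against 3355 and 3228 units in Columbia, again with both jaw-D arrays lower. Its log2 difference was -0.52 ± 0.13 (SE; adjusted p 0.0892, limma). It passed with near-background probe sets left out (adjusted p 0.0183), in each of the 3 scalings, but not there without the variance trend (0.0629) or without jaw-D replicate 1 (0.187) or Columbia replicate 1 (0.0886).

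Genes lying between these showed other values. CYP71B23, between CYP71B22 and CYP71B24, read 345 and 396 units in jaw-D and 308 and 374 units in Columbia, with overlap and a log2 difference of 0.06. As deposited its jaw-D arrays were both higher, at 356 and 394 units against 333 and 339 units. CYP71B21, on the other side of CYP71B22, was near background, at 77.5 and 44.1 units in jaw-D and 7.24 and 8.07 units in Columbia. Its jaw-D arrays were both higher (unadjusted p 0.0368, adjusted p 0.214 in limma), but at this level the size depends on the pseudocount and no fold is given. Its log2 difference was 0.23 at the main pseudocount, 1.24 at 0.1 times it and 0.06 at 4 times it. CYP71B25 was near background too, with a log2 difference of 0.26. So was CYP71B16, which lies outside these genes at the start of the run, with 0.09. CYP71B26 read 1539 and 1946 units in jaw-D and 1593 and 1981 units in Columbia, and its arrays with the same replicate number were close to each other.

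The next genes along the run differed little. CYP71B34 read 1676 and 1771 units in jaw-D and 1818 and 1949 units in Columbia, a log2 difference of -0.11 with a 95% confidence interval from -0.37 to 0.15. Its groups were separated after quantile normalization and overlapped in the deposited values. CYP71B35 read 648 and 608 units in jaw-D and 665 and 618 units in Columbia, and its log2 difference of -0.02 had an interval from -0.36 to 0.32. The differences of CYP71B26 (-0.03) and CYP71B35 turned positive as deposited, at 0.05 and 0.03.

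**Figure D3:**
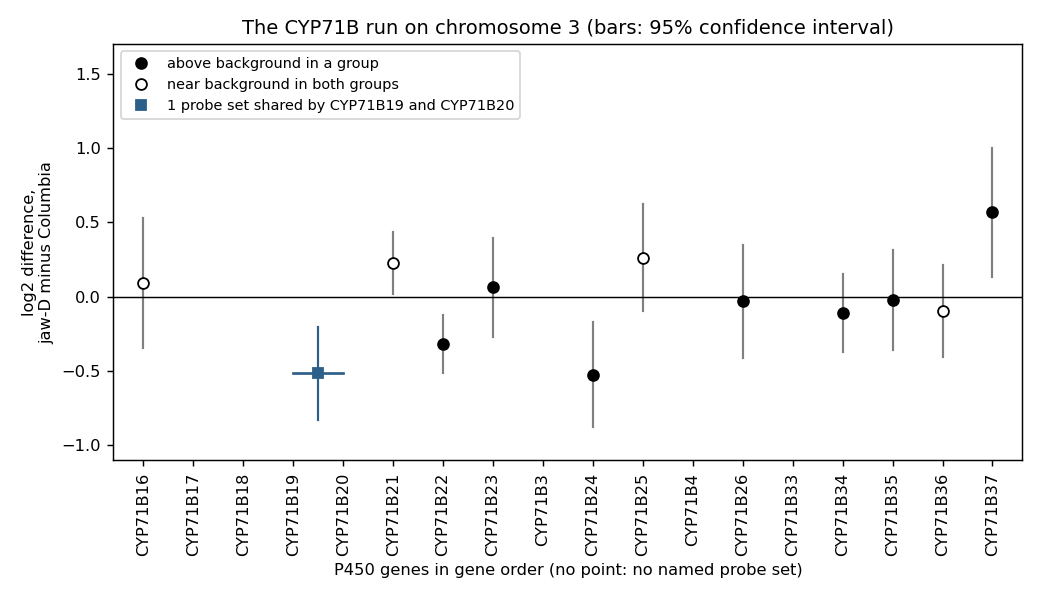
The log2 difference, jaw-D minus Columbia, is plotted for the P450 genes of the run on chromosome 3 in gene order, with 95% confidence intervals. Open circles are near background in both groups, the blue square is the probe set shared by CYP71B19 and CYP71B20, and genes without a point have no named probe set of their own. CYP71B22, CYP71B24 and the shared probe set lie below 0 and CYP71B37 above it, with CYP71B23 at 0.06 between the first 2.

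The 7 CYP71B genes outside the run had log2 differences between -0.22 and 0.32, with adjusted p from 0.300 upwards in limma. CYP71B28 read 1794 and 1866 units in jaw-D, against 2258 and 2115 units in Columbia. Both jaw-D arrays were lower by a small and even margin (log2 difference -0.22, adjusted p 0.300). CYP71B29, the next gene on chromosome 1, read 691 and 337 units in jaw-D and 632 and 501 units in Columbia, and its groups overlapped. CYP71B27, from the same part of chromosome 1, was near background.

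CYP71B6, which has been shown to turn indole-3-acetonitrile into indole-3-carboxylic acid compounds of pathogen defence, was among the bright probe sets. It read 3844 and 3161 units in jaw-D and 3645 and 3956 units in Columbia. The lower jaw-D array lay below both Columbia arrays and the other between them. The log2 difference was -0.11, with a 95% confidence interval from -0.39 to 0.17.

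CYP71B5 on chromosome 3 varied more between the arrays of a group than between the groups. It read 1647 and 1029 units in jaw-D and 966 and 1541 units in Columbia, a larger over smaller ratio of 1.60 in either group. The log2 difference was 0.08, with a wide interval from -0.55 to 0.71. CYP71B38 was near background, with 205 and 319 units in jaw-D and 105 and 193 units in Columbia. Its jaw-D arrays were both higher (log2 difference 0.32, adjusted p 0.343). CYP71B31, which has been linked to linalool oxidation in flowers, was at 18.4 and 16.3 units in jaw-D and 14.5 and 9.28 units in Columbia, near background.

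The 5 probe sets with the highest mean intensity were those of CYP71B22, CYP71B6, CYP71B28, CYP71B34 and CYP71B26, all of the CYP71B subfamily. Intensities of different probe sets do not rank transcript amounts. The differences of all 5 were negative, between -0.32 and -0.03, that of CYP71B26 turned positive as deposited, and none passed the test. The plot of all probe sets shows them among the other probe sets of like intensity.

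**Figure D4:**
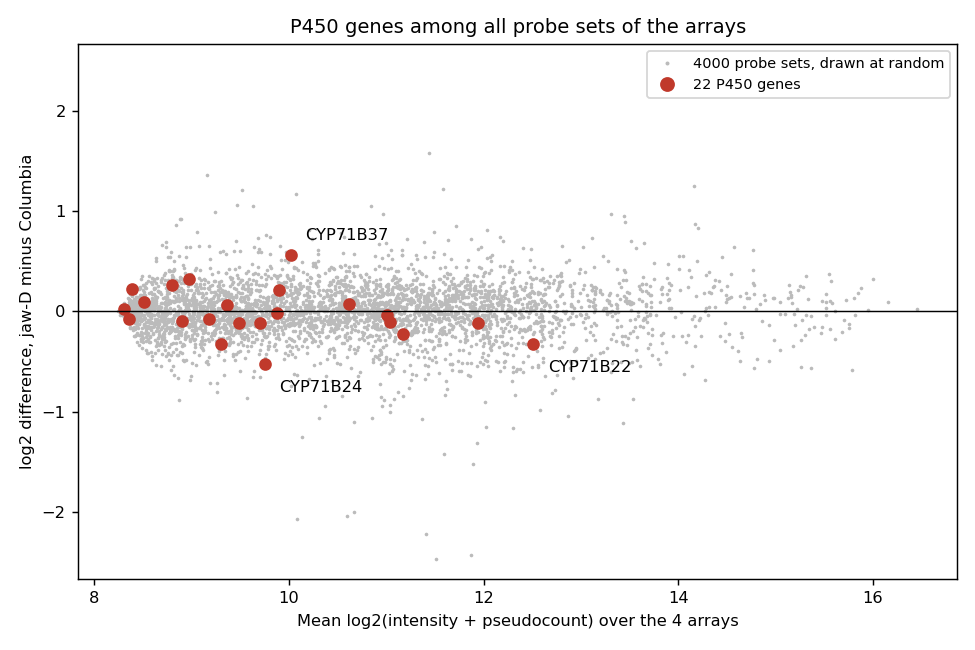
The log2 difference, jaw-D minus Columbia, is plotted against the mean log2(intensity + pseudocount) over the 4 arrays, with the 22 P450 genes in red over 4000 of the 22746 probe sets in grey. The P450 genes lie within the grey points, between -0.53 and 0.57.

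The 4 genes of other subfamilies have known or proposed roles. CYP78A9 belongs to the CYP78A group, whose members promote growth of seeds, fruits and other organs. It read 552 and 932 units in jaw-D and 629 and 544 units in Columbia. Replicate 2 of jaw-D stood above the other 3 arrays, and the other jaw-D array lay between the Columbia arrays. The log2 difference was 0.21, with a 95% confidence interval from -0.31 to 0.73 (adjusted p 0.660, limma).

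CYP84A4, related to ferulate 5-hydroxylase and placed in the synthesis of arabidopyrones, read 386 and 160 units in jaw-D, against 401 and 412 units in Columbia. Replicate 2 of jaw-D was far below the other 3 arrays, which lay close together, not far above 353 units. That array and the jaw-D mean of 273 units lay under 353 units, the highest Bacillus subtilis reading. The log2 difference was -0.33 with all arrays (adjusted p 0.466, limma) and -0.04 without that array.

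CYP51G2, a close relative of the sterol 14-demethylase gene CYP51G1, read 502 and 286 units in jaw-D and 587 and 326 units in Columbia. In both groups replicate 1 was well above replicate 2, and the groups overlapped (log2 difference -0.12, interval -0.70 to 0.46). CYP79A2, which converts phenylalanine to its aldoxime for benzylglucosinolate, was near background, at 10.1 and 21.1 units in jaw-D and 26.7 and 38.6 units in Columbia. Its level was too low for a fold.

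Genes that act beside P450 enzymes could be followed only in part. Of 64 partner loci in 9 lists (redox partners and other enzymes of the P450 pathways) 4 had a named probe set, and none of the 10 redox partners did. Of these 4 genes, 0 were higher and 0 lower in jaw-D by limma, against 4.19% of all probe sets called. At an unadjusted p under 0.05 there was 1 of the 4, against 19.9% of all probe sets. BCAT4, the aminotransferase that starts methionine chain elongation for aliphatic glucosinolates, read 4206 and 3084 units in jaw-D, against 6035 and 6416 units in Columbia. Its log2 difference was -0.74 (adjusted p 0.0535), which did not pass. BCAT4 passed as deposited (0.0449), with arrays centred on the median (0.0339), at 0.1 times the pseudocount (0.0340) and with near-background probe sets left out (0.00358). It did not pass at 4 times the pseudocount (0.0629), without the variance trend (0.116), with a replicate block (0.0640) or with 1 array left out (0.131 to 0.229).

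The other 3 partner genes differed less. LYC, the lycopene cyclase of carotenoid synthesis, read 5638 and 4624 units in jaw-D, against 6419 and 5931 units in Columbia (log2 difference -0.26, adjusted p 0.274). UGT74B1, a glucosyltransferase of the glucosinolate core pathway, differed by -0.16 (adjusted p 0.535), and its groups overlapped. HCT, the hydroxycinnamoyltransferase upstream of lignin precursors, read 8385 and 8882 units in jaw-D and 8673 and 7669 units in Columbia. Its log2 difference of 0.08 (adjusted p 0.693) became -0.06 with each array centred on its median.

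Markers of leaf and root were set beside these values, and none of 5 floral markers had a named probe set. Of 8 leaf markers 2 were measured, RCA and LHCB4.1, and their summed intensity ran between 138104 and 139046 units in jaw-D and between 147406 and 149652 units in Columbia. Neither passed in limma, RCA at -0.04 (adjusted p 0.843) with overlapping groups and LHCB4.1 at -0.15 (adjusted p 0.317). As deposited the Columbia arrays lay further apart, for RCA at 79465 and 64406 units and for LHCB4.1 at 83574 and 76379 units. Of 8 root markers 3 were measured, with sums between 26430 and 31315 units in jaw-D and between 11726 and 13249 units in Columbia. The root sum is nearly all PYK10, a beta-glucosidase of endoplasmic reticulum bodies known from roots and seedlings, which rose in jaw-D (log2 difference 1.25, adjusted p 0.0155, limma). The PYK10 call ended without the variance trend (adjusted p 0.0601) and with any 1 array left out (0.0844 to 0.180). The root hair genes EXPA7 (-0.12) and EXPA18 (-0.25) did not pass. The part of PYK10-rich tissue in the P450 values was not tested, and fewer cells of a type cannot be told apart from less RNA per cell in whole shoots.

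Array medians as deposited were 1139 and 1146 units for jaw-D and 1068 and 1032 units for Columbia. After quantile normalization the log2 values correlated across probe sets at 0.992 within jaw-D, at 0.990 within Columbia and at 0.979 to 0.984 between groups. Of the 952 probe sets called over the whole array 39.3% were higher in jaw-D, and 17.9% were higher among the calls made with each array centred on its own median.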

How the data were processed

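The authors deposited 1 microarray intensity per probe set and array on a linear scale. With 2% trimmed at each end, every array had a mean of 2500 units, which points to scaling before deposit. The software is not given in the sources used here. Control probe sets (64) were left out. Because the highest array median exceeded the lowest by 11.0%, above the limit of 10%, the other 22746 probe sets were quantile normalised. Values were tested as log2(intensity + 302.3), the 25th percentile of the deposited intensities, with limma 3.58.1 in R 4.3.3 (lmFit, eBayes with a mean-variance trend, 2 residual degrees of freedom, two-sided) and Benjamini-Hochberg adjustment over all probe sets. Unless stated, every adjusted p is from this fit. The number of arrays limits the precision.

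Gene names came from the annotation of the platform, with symbols brought up to date by gene identifier in the TAIR10.1 table (13513 probe sets with 1 gene, of which 13436 matched, 503 with several and 8730 unnamed), which also gave gene order. CYP71B30P, whose symbol ends in P, is not counted as a member.

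The genes, lists and tests were chosen with earlier results of these data known. Named were genes that pass, the up to 8 largest differences each way among genes not near background with separated groups, the 5 with the highest mean, members of the role lists and the extremes of CYP71B. Other P450 genes are named to account for all 22.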

Additional observations from a re-analysis of the deposited data

How the results depend on the processing

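No P450 gene passed in limma with the values as deposited, with each array centred on its median, with the pseudocount at 0.1 or 4 times, without the variance trend, with a replicate block or with any 1 array left out (0 higher and 0 lower each). Leaving out near-background probe sets made 1 higher (CYP71B37) and 1 lower (CYP71B24), and so did leaving out those with a dim mean over all 4 arrays (adjusted p 0.0403 and 0.0443). The second filter and the combinations that follow were chosen after seeing the data. With the first filter, 1 was higher (CYP71B37) and 0 lower as deposited, 0 higher and 2 lower (CYP71B22, CYP71B24) with arrays centred on the median, and 0 higher and 1 lower (CYP71B24) without the variance trend. With this filter and 1 array left out, 0 to 1 were higher (CYP71B37 without Columbia replicate 1, adjusted p 0.0385) and 0 lower. The difference of CYP71B37 ran between 0.302 and 0.773 over the alternatives planned at the start, and that of CYP71B24 between -0.772 and -0.257, both set by the pseudocount. No member's probe set name ends in _s_at or _x_at, so leaving those out changed nothing.

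Calls over all probe sets, 374 higher and 578 lower, became 215 and 983 with arrays centred on the median, 14 and 51 without the variance trend, 1026 and 1156 with near-background probe sets left out, 0 to 0 and 0 to 14 with 1 array left out, and 157 and 309 with a replicate block. The cause was not tested. The labels tie no pairs to the replicate numbers. The deviations of same-numbered arrays correlated at -0.02 across all probe sets and at 0.12 across the 22 P450 genes, so the arrays were treated as sharing a number only. The replicate block left the P450 genes at 0 calls, and with near-background probe sets left out too it gave 1 higher and 1 lower (CYP71B37, adjusted p 0.0195, and CYP71B24, adjusted p 0.0441).

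Some differences changed sign, the largest of them that of CYP78A9, at 0.21 in the main fit. As deposited CYP71B26 was at 0.0522 and CYP71B35 at 0.0301, and centred on the median HCT was at -0.056. With 1 array left out the ranges were -0.371 to 0.13 for CYP51G2, -0.137 to 0.323 for CYP71B16, -0.00924 to 0.138 for CYP71B23, -0.176 to 0.112 for CYP71B26, -0.438 to 0.198 for CYP71B29, -0.0564 to 0.0149 for CYP71B35 and -0.22 to 0.0281 for CYP71B36. They were -0.2 to 0.35 for CYP71B5, -0.244 to 0.0162 for CYP71B6, -0.0557 to 0.476 for CYP78A9, -0.0253 to 0.00582 for CYP71B30P and -0.12 to 0.192 for the probe set of CYP79C2 and AT1G58265. Outside the P450 genes they were -0.0069 to 0.164 for HCT, -0.117 to 0.0337 for RCA and -0.658 to 0.421 for EXPA7. With 2 arrays a group, leaving 1 out leaves a single array on that side. Signal near background limits CYP71B16, CYP71B36, CYP71B30P, EXPA7 and the probe set of CYP79C2 and AT1G58265.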

Other observations

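A few P450 probe sets fell outside the naming rule. The pseudogene CYP71B30P, next to CYP71B5, was at 36.5 and 43.9 units in jaw-D and 41.9 and 43.2 units in Columbia, near background. CYP718, whose symbol has no letter, was at 33.5 and 29.2 units in jaw-D and 36.1 and 35.6 units in Columbia, near background too. A probe set annotated to both CYP79C2 and AT1G58265 was at 132 and 237 units in jaw-D and 170.3 and 169.7 units in Columbia. None of the 3 passed the test (adjusted p 0.934 to 0.971, limma).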
